A study of Mus musculus with 2 samples.

Results

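The 8 genes described here encode enzymes and partners that write, maintain, oxidise or read DNA methylation. They are *Dnmt1*, *Dnmt3a*, *Dnmt3b*, *Uhrf1*, *Tet1*, *Tet2*, *Tet3*, and *Mbd2*. They were taken by symbol from the 48321 genes counted in each library, and all 8 were listed. All 8 also met the minimum used for tests, a sum of 10 counts over both libraries, which 15949 genes reached.

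The series holds 2 RNA-seq libraries of 1 group, CD4- mature thymocytes sorted from MHC-II0:CD8ab Tg mice on a C57Bl/6 background, with no treatment and no age given in the labels. These mice are I-Ab-/- and therefore lack MHC class II, carry *Cd8* Δab on both copies of the endogenous locus, hold the *Rosa26* 8a and 8b alleles that express CD8α and CD8β, and carry *Cd4-Cre*. As a model the group has limits, since Cre acts from the time thymocytes express the *Cd4* promoter, and since the study gives the CD8αβ expressed from *Rosa26* as lower than that of normal cells. The libraries' titles give cells lacking both co-receptors while their cell type fields give CD8+ cells, and the number of animals behind each library is not given. Wild-type libraries were not analysed here, so the values below are levels in 1 kind of cell and differences between its replicates, not effects of the genotype.

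Mammalian DNA is methylated mainly on the cytosine of CpG dinucleotides. *Dnmt3a* and *Dnmt3b* place new methyl groups, while *Dnmt1*, brought to newly replicated DNA by *Uhrf1*, copies the pattern of the parent strand onto the daughter strand. The TET enzymes oxidise methylated cytosine, which leads to loss of the mark either by dilution at replication or by base excision, and methyl-CpG readers such as *Mbd2* carry the mark's signal to chromatin complexes. In developing T cells, methylation at *Cd4* and at *Cd8* is known to be remodelled during the choice between the helper and the cytotoxic lineage, and *Dnmt3a*, *Dnmt1*, *Tet2*, and *Tet3* have each been studied there by gene deletion.

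CpG dinucleotides are what these enzymes act on, so the sequences just upstream of the genes' own start sites were examined for them. RefSeq gave promoter windows, from 250 bases before to 50 bases after a start site on GRCm38.p6, for 7 of the 8 genes, with 12 windows in all. The windows held from 2 to 57 CpG dinucleotides, and 11 of the 12 were above the median of 7 over all 32851 promoter windows. The window of *Tet2* was the richest, with 57 CpG at a GC content of 81.3%, and 99.8% of all windows had fewer. *Dnmt1* had the poorest, with 2 CpG at its most upstream start, where 14.1% of all windows had fewer, although another start of *Dnmt1* had 33. Stretches of 4 genes are shown because they span that range, from the poorest to the richest window, with the single *Dnmt3b* window and a *Uhrf1* window between them. They end at the base before the annotated start and therefore hold no transcribed base of that transcript, they are written from 5′ to 3′ on the gene's strand, and capitals mark each CpG.
Dnmt1, chr9:20959889-20960138, minus strand: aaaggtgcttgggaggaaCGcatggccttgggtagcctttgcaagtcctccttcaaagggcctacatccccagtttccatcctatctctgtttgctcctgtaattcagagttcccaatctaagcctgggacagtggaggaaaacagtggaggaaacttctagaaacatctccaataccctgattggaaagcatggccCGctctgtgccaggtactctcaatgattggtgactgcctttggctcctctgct
Dnmt3b, chr2:153649199-153649448, plus strand: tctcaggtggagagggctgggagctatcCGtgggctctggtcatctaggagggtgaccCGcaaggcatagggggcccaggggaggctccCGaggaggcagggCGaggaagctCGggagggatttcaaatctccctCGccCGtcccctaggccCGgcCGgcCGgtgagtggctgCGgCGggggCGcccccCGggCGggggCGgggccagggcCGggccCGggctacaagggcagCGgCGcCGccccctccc
Uhrf1, chr17:56304063-56304312, plus strand: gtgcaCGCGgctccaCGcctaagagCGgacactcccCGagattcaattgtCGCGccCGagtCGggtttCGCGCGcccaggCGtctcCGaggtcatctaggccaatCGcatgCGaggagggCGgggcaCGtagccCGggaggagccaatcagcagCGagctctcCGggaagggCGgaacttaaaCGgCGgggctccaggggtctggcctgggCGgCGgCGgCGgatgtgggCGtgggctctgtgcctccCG
Tet2, chr3:133544391-133544640, minus strand: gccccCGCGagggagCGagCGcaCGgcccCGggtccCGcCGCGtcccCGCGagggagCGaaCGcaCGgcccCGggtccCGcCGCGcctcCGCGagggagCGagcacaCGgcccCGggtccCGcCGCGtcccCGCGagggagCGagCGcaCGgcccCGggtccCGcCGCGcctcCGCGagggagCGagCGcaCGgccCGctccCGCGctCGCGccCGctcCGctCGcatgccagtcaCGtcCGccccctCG
The printed stretches hold 2, 21, 30, and 51 CpG, respectively. That of *Tet2* repeats a CpG-rich unit several times along its length, and that of *Dnmt1* has its CpG far apart.

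Short words known as binding sites were then searched on both strands of the whole windows. An E2F site, a motif of genes used at DNA replication, was taken as any of TTTCCCGC, TTTCGCGC, TTTGCCGC, and TTTGGCGC. It was present in 2.26% of all promoter windows and, among the 12 windows of these genes, in 1 of *Dnmt1* and in the *Uhrf1* window shown above. The *Dnmt1* window that holds 2 such words is the one with 33 CpG and is not printed because it begins within an annotated exon. In the *Uhrf1* window the word TTTCGCGC begins at position -185 relative to the start site. The same *Uhrf1* window holds CCAAT, found in 37.4% of all windows, at 2 places, and GGGCGG, the GC box found in 35.7% of all windows, at 3 places. An E2F word can share bases with a GC box where they lie next to each other, and the deposited counts do not tell which start site was used. Such matches describe the letters only.

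The libraries held 16732644 reads counted on genes in replicate 1 and 16245849 in replicate 2, which was 40.6% and 41.2% of the uniquely aligned reads. Levels in CPM, counts scaled to a common library total, are of these totals, and the floor of 3 counts, the least taken as present, equals 0.179 and 0.185 CPM in the respective libraries. The libraries differed in sex-linked genes, with 34 and 25266 counts on *Xist* and 2450 and 0 counts on *Ddx3y* in replicates 1 and 2, which are the counts of a male and of a female source, so the libraries came from different animals. Any effect of sex on the genes described cannot be told apart from the difference between the replicates. Of 6 T-cell markers all were present, from 39.5 to 277 CPM per kb of exon, with summed levels of 2694 and 2639 CPM. Among markers of other cells, the 4 haemoglobin genes of the erythroid list had 0 counts in both libraries, and *Alas2* of the same list had 8 and 10. Of the thymic epithelial list *Foxn1* had 1 and 0 counts, whereas *Epcam* had 50 and 53 and *Psmb11* had 9 and 11. Of the myeloid or dendritic list *Lyz2* had 0 and 2 counts and *Itgam* 34 and 18, and of the B-cell list *Pax5* had 1 and 0 and *Cd79a* 21 and 15. The marker lists of B cells, myeloid or dendritic cells, thymic epithelial cells, and erythroid cells summed to between 0.478 and 15.2 CPM in a library, led by *Cd79b*, with 196 and 227 counts, and *Csf1r*, with 163 and 191 counts. For double-positive thymocytes, the stage before positive selection, the list summed to 41.3 and 39.0 CPM, most of it from *Cd1d1*, with 426 and 360 counts, and *Dntt*, with 224 and 211. *Rag1* had 8 and 19 counts, *Rag2* had 4 and 1, and *Ptcra* had 2 and 2. The part of such cells in the levels below was not tested.

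*Dnmt1*, the maintenance methyltransferase, had the highest level of the writers, both in CPM and per kb of exon. Replicate 1 gave 4143 counts and replicate 2 gave 4300, or 248 CPM (Wilson 95% confidence interval 240.2 to 255) and 265 CPM (257 to 273), a mean of 256 ± 12.1 CPM (SD, n = 2). These intervals do not overlap, so that with totals on genes replicate 2 was the higher beyond counting error, by 0.10 on the log2 scale (adjusted p = 0.0183, exact binomial test). With edgeR's TMM library sizes the log2 ratio was 0.02 (adjusted p = 0.822), and with the other scalings tried the adjusted p was 0.412 and 0.575, so the difference was not called under any of them. Intervals of single libraries cover counting error only and not the spread between animals. They may be too narrow even for counting error, since without molecular identifiers several reads can stem from the same molecule. Per kb of exon, the scale on which different genes are compared here, the level of *Dnmt1* was 34.7 ± 1.64 CPM per kb (SD, n = 2), higher than 90.7% of the 11833 protein-coding genes with at least 10 counts, whose median was 5.71 CPM per kb. In bulk RNA, fewer cells that express a gene and less of its RNA per cell cannot be told apart.

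*Uhrf1*, which recognises hemimethylated DNA and recruits *Dnmt1*, was the member that differed most between the replicates. It had 599 and 758 counts, or 35.8 and 46.7 CPM, respectively. The mean was 41.2 ± 7.68 CPM, or 9.68 ± 1.80 CPM per kb (SD, n = 2), above 64.2% of protein-coding genes. Per kb, the ratio of *Uhrf1* to *Dnmt1* was 0.250 in replicate 1 and 0.305 in replicate 2 (0.278 ± 0.0388, SD, n = 2), so the level of the recruiting factor was well under that of the enzyme in both libraries. Of 50-base windows of *Uhrf1* transcripts, 15.4% also occur in *Gm5648* or *Gm15953*, which had 0 and 0, and 17 and 14 counts, and reads on those stretches that align to several places were not counted, so its level may be too low.

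Among the de novo enzymes *Dnmt3a* was well above *Dnmt3b*. *Dnmt3a* had 2444 and 2548 counts, or 146 and 157 CPM (151 ± 7.62 CPM, SD, n = 2), and *Dnmt3b* had 277 and 285 counts, or 16.6 and 17.5 CPM (17.0 ± 0.699 CPM, SD, n = 2). Per kb of exon the levels were 9.10 ± 0.458 and 3.34 ± 0.137 CPM per kb, above 62.5% and 38.4% of protein-coding genes. On this scale *Dnmt3b* was thus under the median protein-coding gene and *Dnmt3a* above it. Of 50-base windows of *Dnmt3b*, 9.81% also occur in *Dnmt3c*, its rodent-specific relative, so that reads from them cannot be assigned. *Dnmt3c* was not listed under that symbol, and *Dnmt3c-ps*, a synonym that RefSeq gives for it, had 0 counts in both libraries. *Dnmt3a* overlaps 133 exon bases of the antisense gene *Dnmt3aos*, which had 7 and 9 counts, and the strand setting of the counting is not given in the sources used here.

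*Tet3* had the highest level of the TET enzymes and *Tet1* the lowest, both in CPM and per kb of exon. *Tet3* had 4672 and 4073 counts, or 279 CPM (271 to 287) in replicate 1 and 251 CPM in replicate 2 (265 ± 20.2 CPM, SD, n = 2). *Tet2*, an enzyme often mutated in blood cancers, had 1301 and 1397 counts, or 77.8 and 86.0 CPM (81.9 ± 5.83 CPM, SD, n = 2). *Tet1*, known from embryonic stem cells and germ cells, had 706 and 651 counts, or 42.2 and 40.1 CPM (41.1 ± 1.50 CPM, SD, n = 2). The levels in the 2 libraries did not overlap between any pair of TET enzymes on either scale. Per kb of exon they were 15.9 ± 1.21 for *Tet3*, 4.85 ± 0.345 for *Tet2*, and 2.66 ± 0.0970 CPM per kb for *Tet1*, above 77.3%, 46.3%, and 34.3% of protein-coding genes. Only *Tet3* of the TETs therefore stood above the median protein-coding gene on this scale. Places among protein-coding genes were not computed with other gene lengths. Fewer than 1% of 50-base windows of each TET gene are shared with other genes, with 0.462% for *Tet1* as the highest value.

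*Mbd2*, a methyl-CpG reader that recruits the NuRD chromatin complex, had the highest level per kb of the 8 genes. It had 2212 and 2329 counts, or 132 and 143 CPM (138 ± 7.89 CPM, SD, n = 2). Its level of 42.9 ± 2.46 CPM per kb (SD, n = 2) was above 93.0% of protein-coding genes, and none of its 50-base windows occurs in another gene.

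**Figure D1:**
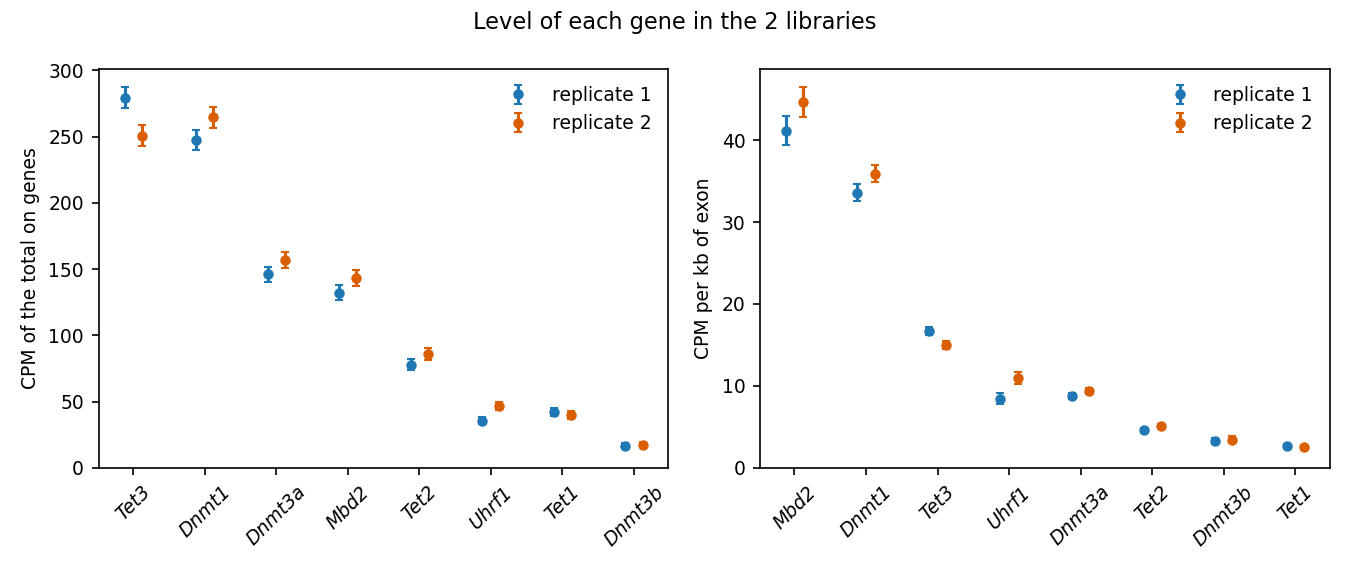
Level of each gene in replicate 1 (blue) and replicate 2 (orange), in CPM of the total on genes (left) and in CPM per kb of exon (right); points are single libraries, bars are Wilson 95% confidence intervals for counting error, and genes are ordered by their mean. *Tet3* and *Dnmt1* lead in CPM with means of 265 and 256, whereas *Mbd2* and *Dnmt1* lead per kb with 42.9 and 34.7.

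Per kb of exon, the order from high to low was *Mbd2*, *Dnmt1*, *Tet3*, *Uhrf1*, *Dnmt3a*, *Tet2*, *Dnmt3b*, and *Tet1*. The values of neighbours in this order overlapped over the libraries only for *Uhrf1* and *Dnmt3a*, with 8.41 and 11.0 CPM per kb for *Uhrf1* and 8.78 and 9.42 CPM per kb for *Dnmt3a* in replicates 1 and 2. Their ratio was 0.958 in replicate 1 (exact 95% interval 0.874 to 1.05) and 1.16 in replicate 2 (1.07 to 1.26), so the order of this pair depended on the library. The closest of the other pairs was *Mbd2* over *Dnmt1*, at 1.23 ± 0.0125-fold, followed by *Dnmt3b* over *Tet1*, at 1.26 ± 0.0973-fold (SD, n = 2). For *Mbd2* over *Dnmt1* the exact 95% intervals, 1.16 to 1.29 in replicate 1 and 1.18 to 1.31 in replicate 2, were wider than this SD. The widest step was from *Dnmt1* to *Tet3*, at 2.20 ± 0.270-fold (SD, n = 2).

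The order rests on which bases are taken as a gene's length. The 8 genes are single protein-coding loci on 8 different chromosomes of GRCm38, and the union of their annotated exons ran from 3214 bases for *Mbd2*, at chr18:70568189-70626131, to 16870 bases for *Tet2*, at chr3:133463679-133545139. *Dnmt3a*, at chr12:3806007-3914443 with 13 annotated coding transcripts, has 16642 bases in this union but 2724 bases of coding sequence in its longest coding transcript. The coding sequence of each gene was that of its longest coding transcript, with 4503 bases for *Dnmt1*. Coding sequences of other transcripts were not tried, and the order on that scale holds for these transcripts only. Per kb of coding sequence *Dnmt3a* reached 55.6 ± 2.80 CPM per kb, beside 56.9 ± 2.68 for *Dnmt1* and 53.0 ± 4.03 for *Tet3* (SD, n = 2), and the ranges of these genes overlapped. On that scale *Tet1* and *Dnmt3b*, at 6.72 ± 0.245 and 6.62 ± 0.271 CPM per kb, also overlapped, in the reverse order. With the longest coding transcript, *Dnmt3a* was above *Uhrf1*, at 15.6 ± 0.787 against 11.5 ± 2.14 CPM per kb. By mean level *Mbd2* was first and *Dnmt1* second under all 3 lengths, but per kb of coding sequence *Tet3* was above *Dnmt1* in replicate 1, at 55.8 against 55.0 CPM per kb.

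**Figure D2:**
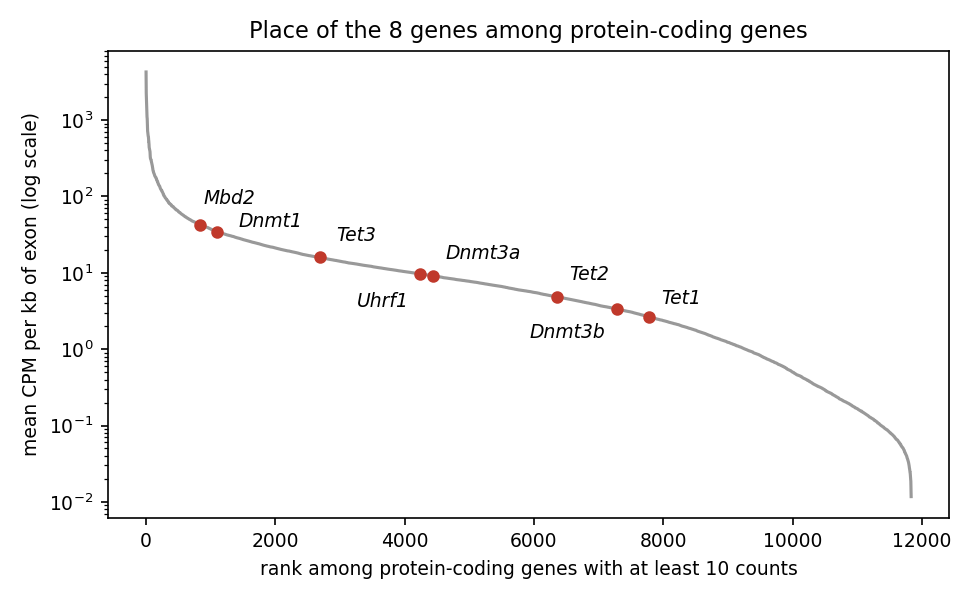
Mean level in CPM per kb of exon (log axis) of the 11833 protein-coding genes with at least 10 counts, ranked from high to low (grey line), with the 8 genes as red points. *Mbd2* stands at rank 831 and *Tet1* at rank 7773, on either side of the median of 5.71 CPM per kb.

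Shares within a family do not depend on library size and were nearly the same in both libraries for the methyltransferases. Of the summed level per kb of *Dnmt1*, *Dnmt3a*, and *Dnmt3b*, *Dnmt1* made up 73.6% in each replicate (73.6% ± 0.0128, SD, n = 2), *Dnmt3a* made up 19.3% ± 0.0577, and *Dnmt3b* made up 7.08% ± 0.0449. The ratio of *Dnmt1* to the sum of the de novo enzymes was accordingly 2.79 ± 0.00184 (SD, n = 2). The share of *Dnmt1* depended on the length used and was 69.0% with the longest coding transcript and 47.8% with the coding sequence, where *Dnmt3a* made up 46.7%, and the ratio fell below 1 at 0.914. Among the TET enzymes *Tet3* made up 69.5% in replicate 1 and 66.1% in replicate 2 (67.8% ± 2.38, SD, n = 2), *Tet2* made up 20.8% ± 2.33, and *Tet1* made up 11.4% ± 0.0517. *Tet3* kept the majority under all 3 lengths, from 67.3% to 71.6%. The TET enzymes summed to 0.528 of the methyltransferases per kb in replicate 1 and 0.466 in replicate 2 (0.497 ± 0.0439, SD, n = 2).

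**Figure D3:**
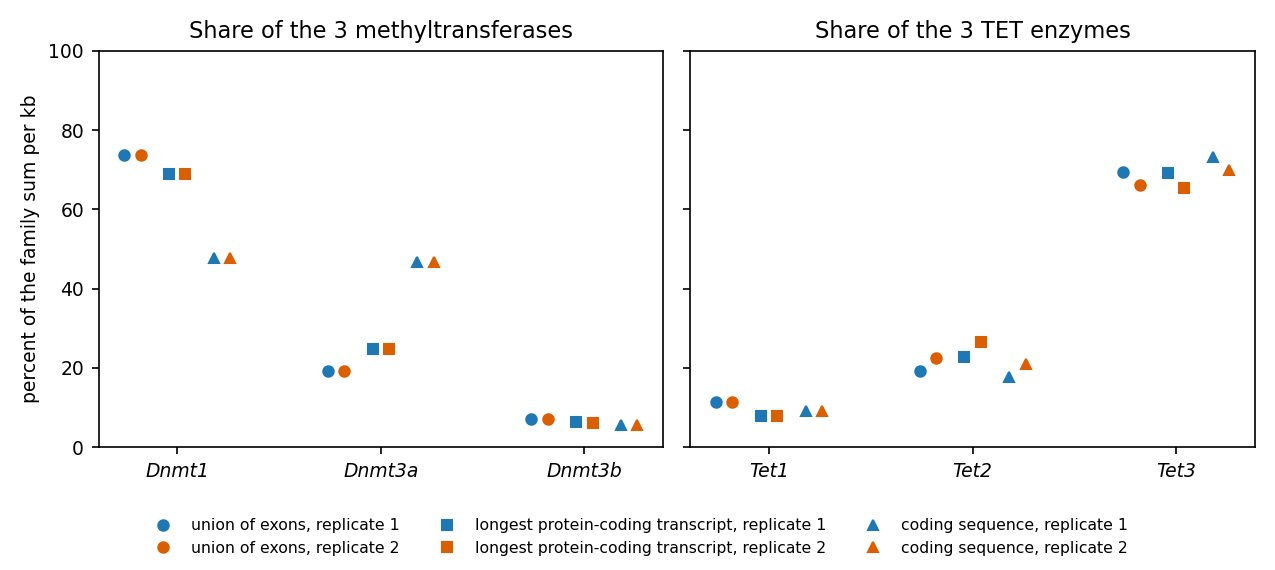
Share of each methyltransferase (left) and each TET enzyme (right) in the family's summed level per kb, in percent, for replicate 1 (blue) and replicate 2 (orange) with each of 3 gene lengths; points are single libraries. *Dnmt1* falls from 73.6% with the union of exons to 47.8% with the coding sequence, and *Tet3* stays between 67.3% and 71.6% on average.

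The replicates were then compared for each gene by a two-sided exact binomial test of its counts against the library totals, which tests whether these libraries differ beyond counting error and not whether conditions do. With a difference of 2-fold or more required besides an adjusted p below 0.05, 0 of the 8 genes were called, beside 1.52% of all genes tested. At any fold 4 of the 8 passed, beside 16.3% of all genes tested, and the share was 24.0% among the 6844 genes whose summed counts lie in the range of these members. Of these 4, *Dnmt1*, *Uhrf1*, and *Mbd2* were higher in replicate 2, beside 13.5% of all genes tested, and *Tet3* was lower, beside 2.82%. The log2 ratios of replicate 2 to replicate 1 were 0.38 for *Uhrf1* (adjusted p = 3.17e-05, exact binomial test), 0.10 for *Dnmt1* (adjusted p = 0.0183), 0.12 for *Mbd2* (adjusted p = 0.0415), and -0.16 for *Tet3* (adjusted p = 1.34e-05). The other log2 ratios were 0.10 for *Dnmt3a*, 0.08 for *Dnmt3b*, 0.15 for *Tet2*, and -0.07 for *Tet1*, with adjusted p from 0.0553 to 0.741.

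The median log2 ratio of all genes tested was 0.08 with totals on genes, so a gene at 0.10 moved little more than the typical gene. With edgeR's TMM library sizes that median was -0.00, and 2 of the 8 genes passed at any fold, beside 10.6% of all genes tested. These were *Uhrf1*, with a log2 ratio of 0.30 (adjusted p = 0.0023, exact binomial test) beside 5.09% of all genes higher, and *Tet3*, with -0.23 (adjusted p = 3.5e-12) beside 5.49% lower. The split of all genes past the threshold moved with the scaling too, since 82.7% of them were higher in replicate 2 with totals on genes and 48.1% with TMM. When edgeR's exact test allowed for a biological coefficient of variation of 0.1 between replicates, 0 of the 8 genes passed at any fold, beside 0.464% of all genes tested, with 0 at an unadjusted p under 0.05, against 6 at an unadjusted p under 0.05 in the binomial test. The estimate of that coefficient from these 2 libraries was 0.105, and the lowest unadjusted p among the 8 genes in edgeR's exact test was 0.083, for *Uhrf1*.

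**Figure D4:**
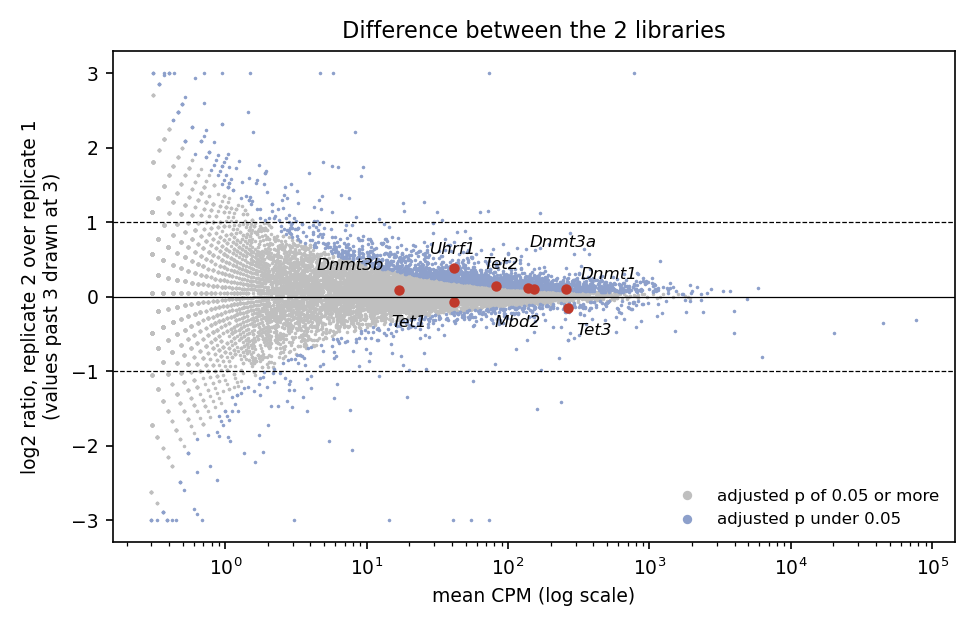
Log2 ratio of replicate 2 over replicate 1 against mean CPM (log axis) for the 15949 genes tested, with genes at an adjusted p under 0.05 in blue, the others in grey, and the 8 genes in red; dashed lines mark 2-fold. *Uhrf1* sits highest of the 8 at 0.38 and *Tet3* lowest at -0.16, and none reaches a dashed line.

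Partners of maintenance methylation were mostly present. Of 10 such genes 8 were tested, and *Dppa3* and *Zfp57*, known from the oocyte, the embryo, and imprinting, had 0 counts in both libraries. The highest were *Trim28*, a corepressor, at 52.8 ± 4.53 CPM per kb, *Pcna*, the sliding clamp of replication, at 49.6 ± 3.14, and *Usp7*, a deubiquitinase that acts on *Uhrf1* and *Dnmt1*, at 35.3 ± 0.753 CPM per kb (SD, n = 2). In the comparison of replicates 5 of the 8 were higher in replicate 2 at any fold and 0 lower, beside 13.5% of all genes tested higher, and the median log2 ratio was 0.17 over the 8, beside 0.08 over all genes. With TMM 2 of the 8 were higher, beside 5.09% of all genes. Of other members of the methyltransferase family, *Trdmt1*, which methylates transfer RNA, had 103 and 101 counts, or 1.61 ± 0.0113 CPM per kb (SD, n = 2), and *Dnmt3l*, the catalytically inactive germline cofactor of *Dnmt3a*, had 0 and 3 counts.

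A list of genes of DNA replication and proliferation was compared between the replicates in the same way. All 15 genes of that list were tested, 14 had a log2 ratio above 0, beside 65.5% of all genes tested, and 5, namely *Mcm2*, *Mcm4*, *Mcm5*, *Mcm6*, and *Mcm7*, subunits of the replicative helicase, were higher in replicate 2 at any fold, with 0 lower, beside 13.5% of all genes tested. These 5 were named after their values were seen. The median log2 ratio was 0.26, beside 0.08 over all genes tested, and *Mcm6* had 1510 and 2294 counts with a log2 ratio of 0.65. With TMM 5 of 15 were higher, beside 5.09% of all genes, 13 had a log2 ratio above 0, beside 49.5%, and the median was 0.18, beside -0.00. The highest levels per kb were 28.3 ± 1.56 for *Mcm3*, 27.5 ± 3.64 for *Mcm4*, and 26.0 ± 3.35 CPM per kb for *Mcm5*, and the lowest was 0.382 ± 0.0385 CPM per kb (SD, n = 2) for *Ccnb1*, the mitotic cyclin, with 25 and 28 counts. The part of cycling cells in the level of *Uhrf1* or *Dnmt1* was not tested.

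Genes that act with or after TET oxidation were present at lower levels than the maintenance partners, with a median of 3.70 CPM per kb over 15 listed genes beside 9.60 over the 10 partners. *Ogt*, the transferase that binds TET proteins, led at 68.5 ± 5.54 CPM per kb, followed by *Idh2*, which makes the TET cofactor, at 16.1 ± 1.11, and *Cxxc5*, a CpG-binding protein, at 13.2 ± 0.346 CPM per kb (SD, n = 2). *Cxxc4*, a relative of *Cxxc5*, had 0 counts in both libraries. Of the 13 tested, 2 were higher in replicate 2 and 0 lower at any fold with totals on genes, a share near the 13.5% of all genes tested. These were *Mbd4* and *Ogt*, with log2 ratios of 0.50 and 0.17. With TMM 2 of the 13 were higher and 0 lower, beside 5.09% of all genes higher. *Mbd4*, a glycosylase that removes thymine from mismatches at CpG sites, had 192 and 263 counts and was named after its values were seen.

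The 8 genes listed as methyl-CpG readers besides *Mbd2* were all tested, although whether each binds methylated DNA was not examined. Levels ran from 1.41 ± 0.0798 CPM per kb for *Mbd5* to 57.3 ± 0.527 for *Mbd3*. The latter is a NuRD subunit that has lost selective binding to methylated DNA in mammals. *Mbd6* and *Zbtb4* followed at 12.5 ± 0.848 and 11.4 ± 1.90 CPM per kb (SD, n = 2). *Mbd2* was thus above all but *Mbd3* of these 8 listed genes on this scale. At any fold 3 of the 8 were higher in replicate 2 and 0 lower, beside 13.5% of all genes higher, and 2 were higher with TMM, beside 5.09%. All 12 NuRD subunits, the complex with which *Mbd2* and *Mbd3* act, were tested as well. *Chd3* and *Chd4*, the helicases of the complex, led at 106 ± 12.8 and 94.7 ± 5.89 CPM per kb, with *Mta2* at 69.3 ± 1.90, and *Cdk2ap1* was lowest at 5.17 ± 0.645 CPM per kb (SD, n = 2). Of the 12, 5 were higher in replicate 2 and 0 lower at any fold, beside 13.5% of all genes higher, and 1 was higher with TMM, beside 5.09%. With DESeq2 library sizes 4 of the 12 were higher, beside 992 of the 15949 genes tested. With totals without mitochondrial and ribosomal RNA genes 4 were higher as well, beside 1148 of the 15949.

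The methyl donor of *Dnmt1*, *Dnmt3a*, and *Dnmt3b* is S-adenosylmethionine. Of 9 genes of its cycle 8 were tested, and *Mat1a*, the liver form of the synthetase, had 0 counts in both libraries. *Mat2a*, the form used outside the liver, was at 51.2 ± 2.64 CPM per kb, with its regulatory subunit *Mat2b* at 18.6 ± 1.27 and *Ahcyl1*, a relative of the hydrolase that removes the spent donor, at 13.7 ± 0.0613 CPM per kb (SD, n = 2). At any fold 3 of these 8 were higher in replicate 2 and 0 lower, beside 13.5% of all genes higher, and 1 was higher with TMM, beside 5.09%.

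**Figure D5:**
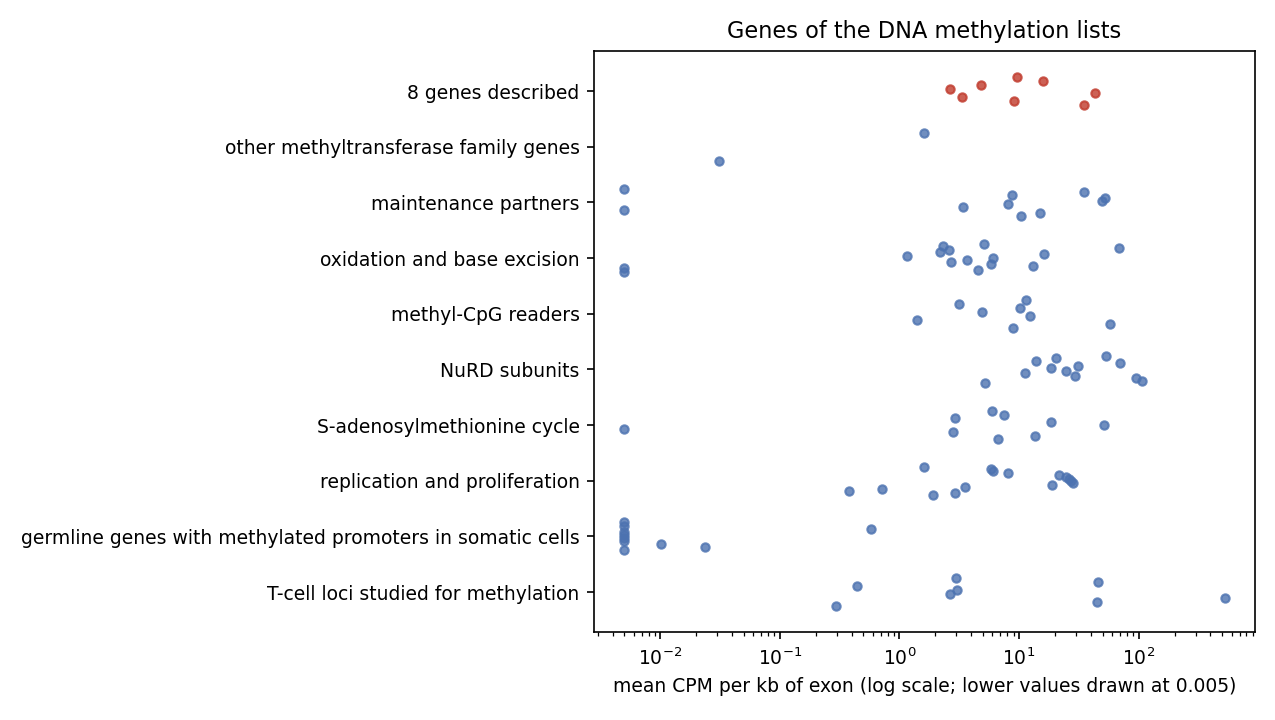
Mean level in CPM per kb of exon (log axis) of each listed gene, by list, with the 8 genes in red and genes of the other lists in blue; each point is 1 gene and values under 0.005 are drawn at 0.005. The 8 genes lie between 2.66 and 42.9 CPM per kb, whereas no germline gene lies above 0.574 CPM per kb.

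Loci whose promoters or enhancers are known to be methylated in some cells were given beside the enzymes, although RNA counts measure no methylation. Of 10 germline genes whose promoters are methylated in somatic cells, 9 were at or under 3 counts in both libraries. The exception was *Sycp3*, a protein of the synaptonemal complex, with 15 and 9 counts. Such low counts were common, since 21743 and 21921 of the 48321 listed genes had any count in replicates 1 and 2. Among T-cell loci, *Cd4* had 12 and 27 counts, or 1.19 ± 0.668 CPM, beside 165 ± 9.31 CPM for *Cd8a* and 780.3 ± 7.41 CPM for *Cd8b1* (SD, n = 2). Counts on *Cd8a* and *Cd8b1* cannot be divided between the *Rosa26* alleles and the disrupted endogenous locus, so they do not report on the locus that the enzymes would act on. *Runx3*, a factor of the cytotoxic lineage, was at 228 ± 15.9 CPM, and *Zbtb7b*, which encodes the helper-lineage factor ThPOK, was at 16.8 ± 1.89 CPM (SD, n = 2). *Foxp3*, the factor of regulatory T cells, had 202 and 201 counts, and the cytokine genes *Ifng* and *Il4* had 78 and 51, and 11 and 7 counts. None of these 8 loci differed by at least 2-fold at an adjusted p under 0.05 between the replicates, beside 1.52% of all genes tested. *Cd4*, with a log2 ratio of 1.18 and an adjusted p of 0.0799 in the exact binomial test, was the only one past 2-fold. At any fold 2 of the 8, *Runx3* and *Cd8a*, were higher in replicate 2 and 0 lower, beside 13.5% and 2.82% of all genes. Their log2 ratios were 0.14 (adjusted p = 0.000359, exact binomial test) and 0.12 (adjusted p = 0.0246). With TMM 0 were higher and 1 lower, beside 5.09% and 5.49%.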

How the data were processed

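RNA was sequenced in 2 replicates of sorted CD4- mature thymocytes of MHC-II0:CD8ab Tg mice, as single-end reads. Per the submitters' processing notes, TopHat2 2.1.1 and HTSeq 0.6.1 were used with mm10 (GRCm38). The authors deposited raw whole-number counts of reads per gene, without normalization, and the gene annotation and strand setting are not given in the sources used here. Rows of unassigned reads were left out of totals and tests, and the row of reads on no gene held 55.9% of uniquely aligned reads in both libraries.

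CPM were computed from the deposited counts and the total on genes. Positions and lengths came from GENCODE M21 (46294 of 48321 symbols matched to 1 gene), as the union of exons. Levels are mean ± SD over 2 replicates, with Wilson 95% intervals for single libraries. The replicates were compared by exact binomial tests (two-sided), with p-values adjusted by Benjamini-Hochberg over 15949 genes (at least 10 counts summed), tested on simulated data, and log2 ratios used 0.5 added to each count. Such p-values compare these libraries beyond counting error and carry no estimate of the spread between animals. Alternatives used edgeR 4.0.16, DESeq2 1.42.0, totals that leave out 396 genes of mitochondrial and ribosomal RNA, other lengths and minimum counts, and each replicate left out. Scripts ran in Python 3.11.15 with scipy 1.17.1 and in R 4.3.3.

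The genes named are the 8 members and, in each list, the 3 highest and the lowest per kb, those called between the libraries at 2-fold, and every T-cell locus and other methyltransferase. Others are marked where they appear, apart from markers and genes at 0 counts, and 3 listed genes are not reported here. The members and lists were chosen with earlier results of these data known. Sequences came from RefSeq promoters on GRCm38.p6, and 1 gene, *Mbd2*, had none.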

Additional observations from a re-analysis of the deposited data

How the results depend on the processing

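With edgeR's TMM or DESeq2 library sizes every level in CPM moved by less than 1 SD. That outcome says nothing about stability, since both scalings keep the average library size near that of the totals on genes. Totals without mitochondrial and ribosomal RNA genes raised the levels, by construction, to 297 CPM for *Dnmt1*, 175 for *Dnmt3a*, 19.8 for *Dnmt3b*, 47.7 for *Tet1*, 94.8 for *Tet2*, 307 for *Tet3*, and 159.6 for *Mbd2*. *Uhrf1* rose as well, from 41.2 to 47.7 CPM, which lay within 1 SD only because its SD was 7.68 CPM. With the longest coding transcript as length, the shares were 69.0% for *Dnmt1*, 24.7% for *Dnmt3a*, 6.24% for *Dnmt3b*, 7.93% for *Tet1*, and 24.8% for *Tet2*, and the ratios were 2.23 for *Dnmt1* to the de novo enzymes and 0.572 for the TETs to the methyltransferases. With the coding sequence, the shares were 47.8% for *Dnmt1*, 46.7% for *Dnmt3a*, 5.56% for *Dnmt3b*, 9.09% for *Tet1*, and 71.6% for *Tet3*, and the ratios were 0.914 and 0.622. With no minimum fold, 4 of the 8 genes and 2596 of all genes differed between the libraries, against 0 and 242 at 2-fold, 55 of all genes at a minimum of 100 counts, and 60 by edgeR's exact test with a coefficient of variation of 0.1. Chosen after seeing the data, the count of the 8 at any fold was 2 with TMM, DESeq2 sizes, or totals without those RNA genes. Of the 15949 genes tested, 1688, 1731, and 1824 passed under these scalings, respectively. With edgeR's exact test 0 of the 8 passed, beside 0.464% of all genes tested. Leaving out a replicate leaves only the other library's value and no test, and with 2 replicates it says nothing about stability. No paired analysis was possible because the series has 1 group. Depth limits a level to 3 counts, 0.179 or 0.185 CPM, and all 8 genes were far above it.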
